A study of Mus musculus with 8 samples.

Results

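The Id genes Id1, Id2, Id3 and Id4 encode inhibitors of basic helix-loop-helix (bHLH) transcription factors. They are 4 of the 12393 named genes measured here, and 8 of the 22690 Affymetrix probe sets in the deposited table report them, 1 for Id1, 3 for Id2, 1 for Id3 and 3 for Id4, each named for a single gene. A probe set is a group of short probes that report 1 transcript. The family was chosen by the differences between transgenic and wild type samples in this same table, where a low transgenic value of Id4 was already known. The group differences of the 8 probe sets are therefore given as a description, and no test of them is offered as evidence.

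The samples were ventral prostates of FVB mice aged 20 weeks, with 1 array each. In the wild type group (n = 4) the tissue was labelled normal. In the transgenic group (n = 4) the active form of p110 beta, one of the catalytic subunits of PI3-kinase, was overexpressed and the tissue was labelled mPIN, mouse prostatic intraepithelial neoplasia. The promoter that drives the transgene is not given in the sources used here, and the labels do not say whether arrays are of separate animals, so the errors below measure the spread between samples, which may be partly technical.

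A bHLH factor binds DNA as a dimer, usually of a broadly expressed E protein with a tissue-restricted partner, at short sites called E-boxes. Id proteins keep the helix-loop-helix that forms dimers but lack the basic region that touches DNA, so an E protein bound to an Id protein cannot act on its genes. Id1, Id2 and Id3 are widely known as direct targets of bone morphogenetic protein (BMP) signalling and are linked to proliferation and blocked differentiation. Id4 has been described as often silenced in human prostate cancer.

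The DNA before the start sites of Id4 and Id2 is shown because Id4 was the member that differed between the groups, and Id2 the only other one whose brightest probe set exceeded the array median in every transgenic sample. Both are the 250 bases before the RefSeq start site on the GRCm38.p6 build, read on the gene's own strand. The Id4 window is chr13:48260866-48261115 on the plus strand and the Id2 window chr12:25096093-25096342 on the minus strand. Capitals mark matches to the E-box CANNTG and to GGCGCC, a GC-rich sequence known from the BMP-responsive region of Id1. Each motif is its own reverse complement, so 1 search covers both strands, and no match of one overlapped a match of the other.
Id4: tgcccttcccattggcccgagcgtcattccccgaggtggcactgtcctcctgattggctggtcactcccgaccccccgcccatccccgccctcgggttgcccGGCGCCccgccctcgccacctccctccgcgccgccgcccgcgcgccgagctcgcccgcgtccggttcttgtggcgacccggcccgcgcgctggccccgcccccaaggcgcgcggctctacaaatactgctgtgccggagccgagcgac
Id2: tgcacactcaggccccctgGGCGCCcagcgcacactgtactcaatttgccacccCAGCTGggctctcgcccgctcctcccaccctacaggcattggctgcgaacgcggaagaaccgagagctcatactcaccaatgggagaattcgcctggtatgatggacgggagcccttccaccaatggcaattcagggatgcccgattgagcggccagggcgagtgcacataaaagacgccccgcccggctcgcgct

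The Id4 window was 75.6% G and C with 35 CpG dinucleotides, against 62.8% and 18 in the Id2 window and a median of 52.4% over all 32851 promoter windows of this length. GGCGCC occurred once in each of them, 148 to 143 bases before the start of Id4 and 231 to 226 bases before the start of Id2. Of all promoter windows 9.59% held it. An E-box, CAGCTG, occurred once before Id2, and these letters were not found in the Id4 window. CANNTG was present in 66.2% of all windows. The Id3 window, at 62.8% G and C, held neither motif. These matches describe the sequence and are not evidence of binding.

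The transcript of Id4 was lower in every transgenic sample than in every wild type sample, on all 3 of its probe sets. The 5 probe sets of Id1, Id2 and Id3 had overlapping groups. In a limma fit over all probe sets, with Benjamini-Hochberg adjustment and a threshold of 0.05, a probe set past the threshold is said to be called. Of the 8 Id probe sets 3 were called, all lower and all of Id4. Among all probe sets tested, 9.84% were called and 4.36% were called lower, and in 15.0% the groups did not overlap. The contrast chose the family, so nothing is read from the higher share. The median difference of the 8 probe sets was -0.33 on the log2 scale, against -0.03 over all 22626 probe sets tested.

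**Figure D1:**
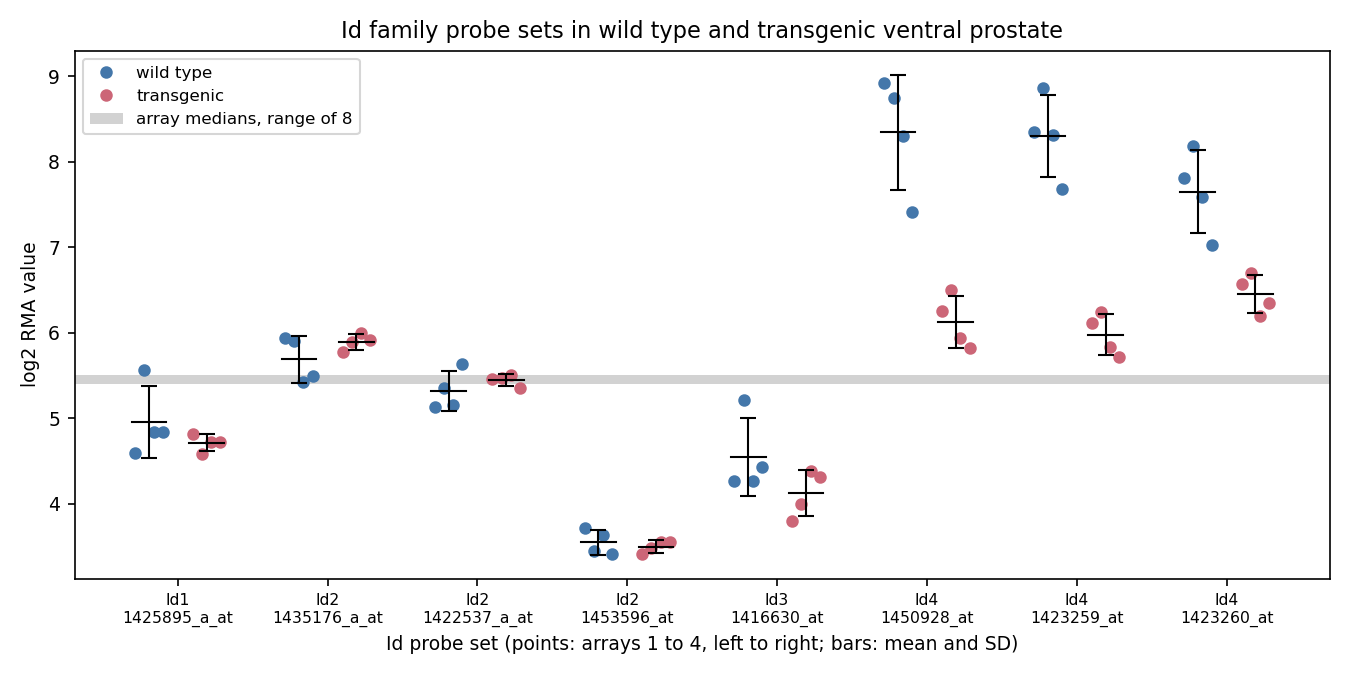
Log2 RMA value (vertical axis) of each Id probe set in the wild type (blue) and transgenic (red) arrays; points are arrays 1 to 4 from left to right, black bars the mean and SD, and the grey band the range of the 8 array medians. The 3 Id4 probe sets separate the groups, while those of Id1, Id2 and Id3 lie near or below the band and overlap.

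For Id4, the values are on the log2 scale of robust multi-array average (RMA), where 1 unit is a doubling. Probe set 1450928_at, which has the highest mean of the Id4 probe sets, read 8.92, 8.75, 8.30 and 7.42 in wild type arrays 1 to 4. It read 6.25, 6.50, 5.94 and 5.82 in transgenic arrays 1 to 4. Wild type array 4 was thus the lowest of its group and still 0.92 above the highest transgenic array. The means were 8.35 ± 0.67 and 6.13 ± 0.31 (SD, n = 4 each), a difference of -2.22 ± 0.28 (SE) with a 95% interval from -2.84 to -1.60. The level was 4.66-fold higher in wild type. All 8 values lay above the median of their own array, in the transgenic group by 0.37 to 1.07, so the lower level was still above the middle of the array.

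The second Id4 probe set, 1423259_at, read 8.35, 8.86, 8.31 and 7.68 in wild type arrays 1 to 4 and 6.11, 6.24, 5.84 and 5.72 in transgenic arrays 1 to 4. Its difference was -2.32 ± 0.21 (SE), 5.0-fold higher in wild type. The remaining one, 1423260_at, read 7.81, 8.18, 7.59 and 7.02 in wild type arrays and 6.57, 6.70, 6.19 and 6.35 in transgenic arrays. It separated the groups by a smaller amount, -1.20 ± 0.21 (SE), or 2.29-fold. The 95% interval of 1423260_at, -1.66 to -0.73, did not meet that of 1423259_at, -2.79 to -1.85, and overlapped that of 1450928_at only near its lower end. All 3 are listed under the same source transcript, so they are not independent measurements of Id4, and the size of its fall depends on which one is read. Their mean fell by 1.91 on the log2 scale. By 1450928_at Id4 ranked 7th from the lowest difference among 12393 named genes, each represented by its probe set with the highest mean.

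Id4 also varied among samples of the same group. A choice by group differences can favour probe sets that vary, and the shares below are over all probe sets, dim ones included. The within-group SD of 1450928_at, 0.52, was larger than that of 99.0% of all probe sets, and in wild type samples alone its SD exceeded that of 99.3%. For 1423259_at and 1423260_at the within-group SDs were 0.38 and 0.38, above 95.9% and 95.8% of probe sets. Array 4 was the lowest wild type array on all 3 probe sets, and array 2 the highest transgenic array on all 3. The deviations of the arrays from their group means were correlated between the 3 probe sets, with r from 0.88 to 0.97 over 8 arrays. The probe sets share arrays and source transcript, so this describes how alike they read and not how Id4 is controlled. A large spread was not particular to Id4. The within-group SD of the Id3 probe set, 0.37, was above 95.6% of probe sets, and that of the Id1 probe set, 0.30, above 89.8%. Those of Id2 1435176_a_at, 1422537_a_at and 1453596_at were lower, above 63.8%, 50.2% and 17.7%.

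Id1, the member best known as a BMP target, was low on these arrays. Its single probe set, 1425895_a_at, read 4.60, 5.56, 4.83 and 4.84 in wild type arrays 1 to 4 and 4.82, 4.58, 4.73 and 4.73 in transgenic arrays 1 to 4. Only wild type array 2 lay above its array median, and the other wild type values, 4.60 to 4.84, covered nearly the same range as the transgenic ones, 4.58 to 4.82. The difference was -0.25 ± 0.18 (SE), with a 95% interval from -0.63 to 0.14.

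For Id3, none of the 8 values lay above the array median, where background can set the value. Probe set 1416630_at read 4.27, 5.22, 4.26 and 4.43 in wild type arrays 1 to 4 and 3.80, 4.00, 4.38 and 4.32 in transgenic arrays 1 to 4. Wild type array 2 was again the highest, and transgenic arrays 3 and 4 exceeded wild type arrays 1 and 3. The difference was -0.42 ± 0.21 (SE), with a 95% interval from -0.88 to 0.04. The deviations of Id1 and Id3 from their group means had r = 0.80 over 8 arrays, and wild type array 2 had the highest value of both. Without that array the differences were -0.04 for Id1 and -0.19 for Id3.

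Id2, which besides E proteins can bind the retinoblastoma protein, leaned the other way on its brighter probe sets. Probe set 1435176_a_at read 5.94, 5.90, 5.42 and 5.49 in wild type arrays 1 to 4 and 5.78, 5.89, 5.998 and 5.92 in transgenic arrays 1 to 4. The transgenic values lay close together, and wild type arrays 1 and 2 fell among them. The difference was 0.21 ± 0.13 (SE), with a 95% interval from -0.08 to 0.50. Probe set 1422537_a_at ranged from 5.13 to 5.64 in wild type and from 5.35 to 5.51 in transgenic samples, a difference of 0.13 ± 0.12 (SE). Probe set 1453596_at, between 3.41 and 3.71 on all 8 arrays and below every array median, differed by -0.05 ± 0.10 (SE). The Id2 probe sets did not follow each other within groups. Their deviations from group means had r from -0.81 to 0.31 over 8 arrays, and -0.27 between 1435176_a_at and 1422537_a_at. None of the 5 probe sets of Id1, Id2 and Id3 was called in the limma fit, and 0 had an unadjusted p under 0.05. Their intervals do not show equal levels. For Id3 a fall of up to 0.88 on the log2 scale lies within the interval. For Id2 1435176_a_at the interval ends at 0.50. The share of all probe sets with an unadjusted p under 0.05 was not counted, so nothing is read from such counts here or below.

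**Figure D2:**
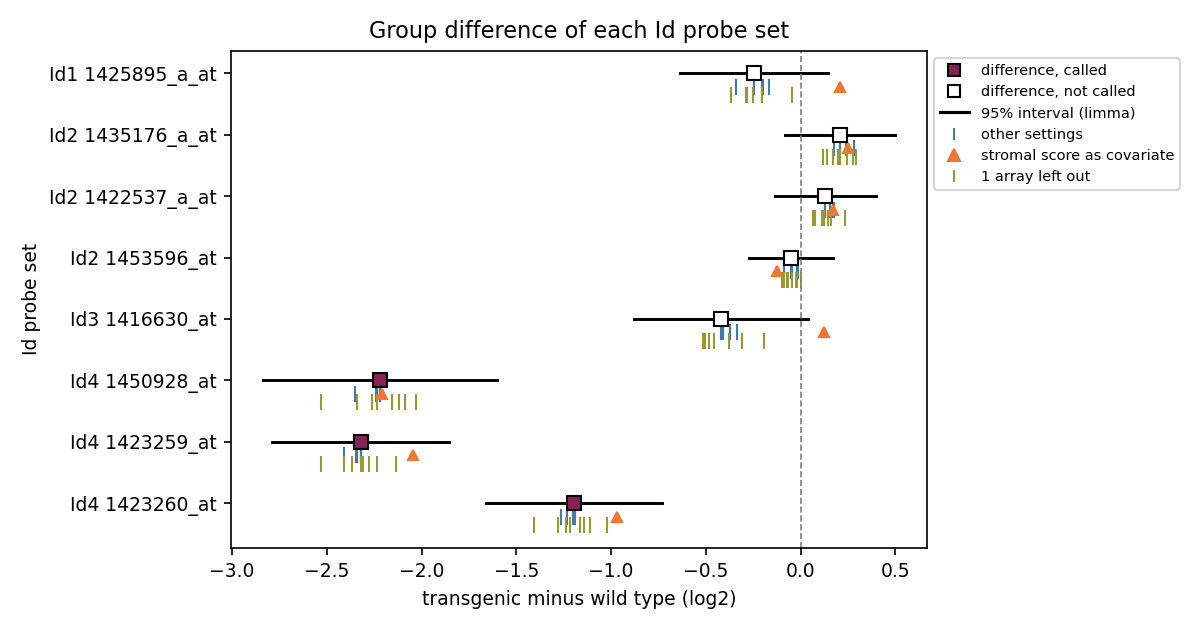
Transgenic minus wild type difference on the log2 scale (horizontal axis) of each Id probe set, with its 95% interval from limma; ticks below give the difference under other settings and with 1 array left out, and triangles that with a stromal marker score as a covariate. The 3 Id4 probe sets lie between -2.53 and -0.97 under every setting drawn, and the triangles of Id1 and Id3 lie above 0.

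Markers of other cell types moved with the groups, and in whole tissue fewer cells of a type and less RNA per cell cannot be told apart. The tissue carried its defining markers: all 8 measured of 10 luminal epithelial markers exceeded the median on some array, and all 6 seminal vesicle markers lay below it on every array. Of 96 measured marker genes in 13 lists 6 were called higher and 10 lower in limma, together 16.7%, where over all 12393 named genes 11.0% were called, 5.99% higher and 4.98% lower. Without wild type array 1 the same lists gave 26 calls. Luminal markers had 5 of 8 higher and basal markers 5 of 10 lower, with the mean log2 level of the basal list between 6.28 and 6.43 in wild type and between 5.80 and 5.96 in transgenic samples. Smooth muscle and fibroblast markers had 2 of 10 lower each, counts that rest on Smtn and Mylk and on Dcn and Pdgfra. The mean log2 level of the smooth muscle list was between 8.19 and 8.85 in wild type and between 7.84 and 8.22 in transgenic samples. That of the fibroblast list was between 6.88 and 8.05 and between 6.77 and 7.04, and of the fibroblast markers only Thy1 lay below every array median. The remaining calls were 1 gene each in the macrophage and the Schwann cell and nerve lists. Mrc1, the mannose receptor of macrophages, was 4.81-fold higher in transgenic samples, at 8.71 ± 0.24 against 6.44 ± 0.56 (SD, n = 4 each), while the other 8 macrophage markers measured were not called. Ncam1, a neural cell adhesion molecule, was 2.90-fold higher in wild type, at 7.36 ± 0.36 against 5.83 ± 0.29 (SD, n = 4 each). Of the 6 Schwann cell and nerve markers 3 were measured, and the other 2, Sox10 at 0.006 and S100b at -0.10, were not called. S100b lay below the median on every array. Mrc1 and Ncam1 had the largest called differences among the marker genes in each direction, and their part in the Id values was not tested.

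A stromal score, which averages the smooth muscle and fibroblast markers after each gene is centred on its own mean, had a wild type mean of 0.24 ± 0.38 and a transgenic mean of -0.24 ± 0.11 (SD, n = 4 each; two-sided exact permutation p = 0.0571, adjusted over 2 scores 0.114). Wild type array 2, which held the highest Id1 and Id3 values, also had the highest stromal score, 0.74. With the score as a covariate, the difference of Id1 was 0.21 ± 0.17 (SE) and that of Id3 0.12 ± 0.19, both with their sign turned and neither called. Under the same covariate the Id4 differences were -2.21 ± 0.41 (SE) on 1450928_at, -2.04 ± 0.29 on 1423259_at and -0.97 ± 0.29 on 1423260_at, the last no longer called. These repeat the contrast that chose the family and are a description. The part of stroma in the values of Id1 and Id3 was not tested further.

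Endothelial cells are a well-known site of Id1 and Id3 expression. None of the 10 endothelial markers was called in limma, and 0 had an unadjusted p under 0.05, but 7 of them, Pecam1 and Cdh5 included, lay below the median on every array. Their mean log2 level was between 4.45 and 4.86 in wild type and between 4.62 and 4.73 in transgenic samples. The endothelial score differed by -0.06 (two-sided exact permutation p = 0.486), and with it as a covariate the Id1 and Id3 differences were -0.17 and -0.33. Without wild type array 1 the endothelial score differed by -0.15 (two-sided exact permutation p = 0.0571, not adjusted). With any other array left out it differed by -0.083 to -0.015.

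The partners and regulators of the Id proteins were examined in 8 lists, of which 63 genes were measured. In limma 2 were called higher and 4 lower, together 9.52%, where over all named genes 11.0% were called. The share called in these lists was thus near that of the table. Their median difference was -0.06, against -0.04 over all genes.

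E proteins are the direct dimer partners of the Id proteins. Of the 3, Tcf4 fell and Tcf3 and Tcf12 were not called. Tcf4, which encodes the E protein E2-2, read 7.58, 7.19, 7.07 and 6.88 in wild type arrays 1 to 4 and 6.75, 6.35, 6.44 and 6.42 in transgenic arrays 1 to 4. The groups did not overlap, and the difference was -0.69 ± 0.15 (SE; limma adjusted p = 0.0129). Of its 6 probe sets 5 were called lower, with differences from -0.69 to -0.56, and the exception, at -0.03, lay near 3.2 in both groups. Tcf12, encoding the E protein HEB, had overlapping groups at 8.53 ± 0.26 and 8.45 ± 0.06 (SD, n = 4 each; difference -0.08 ± 0.13, SE). Tcf3, which encodes E12 and E47, lay below every array median at 4.40 ± 0.09 and 4.38 ± 0.15 (SD, n = 4 each).

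Tissue-restricted bHLH factors are the usual partners of E proteins. Of 15 measured, 2 fell in limma, 13 were not called and none rose, and 11 lay below the median on every array. Bhlha15, encoding MIST1, a factor of secretory cells, went from 10.93 ± 0.23 to 9.51 ± 0.22 (SD, n = 4 each), a fall of 1.42 on the log2 scale (limma adjusted p = 7.28e-05). Its wild type arrays read 11.19, 10.67, 10.82 and 11.04 and its transgenic arrays 9.84, 9.42, 9.36 and 9.43, with no overlap. A second, dimmer Bhlha15 probe set fell by 0.41. Twist2, a factor of mesenchymal cells, went from 5.78 ± 0.16 to 5.37 ± 0.09 (SD, n = 4 each; limma adjusted p = 0.0290). It missed the threshold in 6 of the 8 fits with 1 array left out, passing only without wild type array 1 or transgenic array 4 (adjusted p up to 0.0940 in the others). With the stromal score in the model it also missed it (adjusted p = 0.426).

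Factors of the Hes, Hey and Bhlhe families repress transcription as bHLH dimers of their own. Of 8 measured, 1 rose in limma and 7 were not called, and 3 had an unadjusted p under 0.05, Bhlhe40, Hes1 and Hes6. The share of all genes under that unadjusted level was not counted, so the 3 are not read as an excess. Hes1 differed by -0.37 ± 0.11 (SE; limma adjusted p = 0.0578) and Hes6 by 0.39 ± 0.14 (SE; limma adjusted p = 0.114). Hes1 and Hes6 were named after their values were seen. Bhlhe40, also called Dec1, read 5.93, 6.33, 5.94 and 5.86 in wild type arrays 1 to 4 and 7.79, 7.44, 7.59 and 7.56 in transgenic arrays 1 to 4. It rose by 1.58 ± 0.13 (SE; limma adjusted p = 1.46e-05), 2.98-fold, with every transgenic array more than 1 unit above every wild type array. It has a single probe set.

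**Figure D3:**
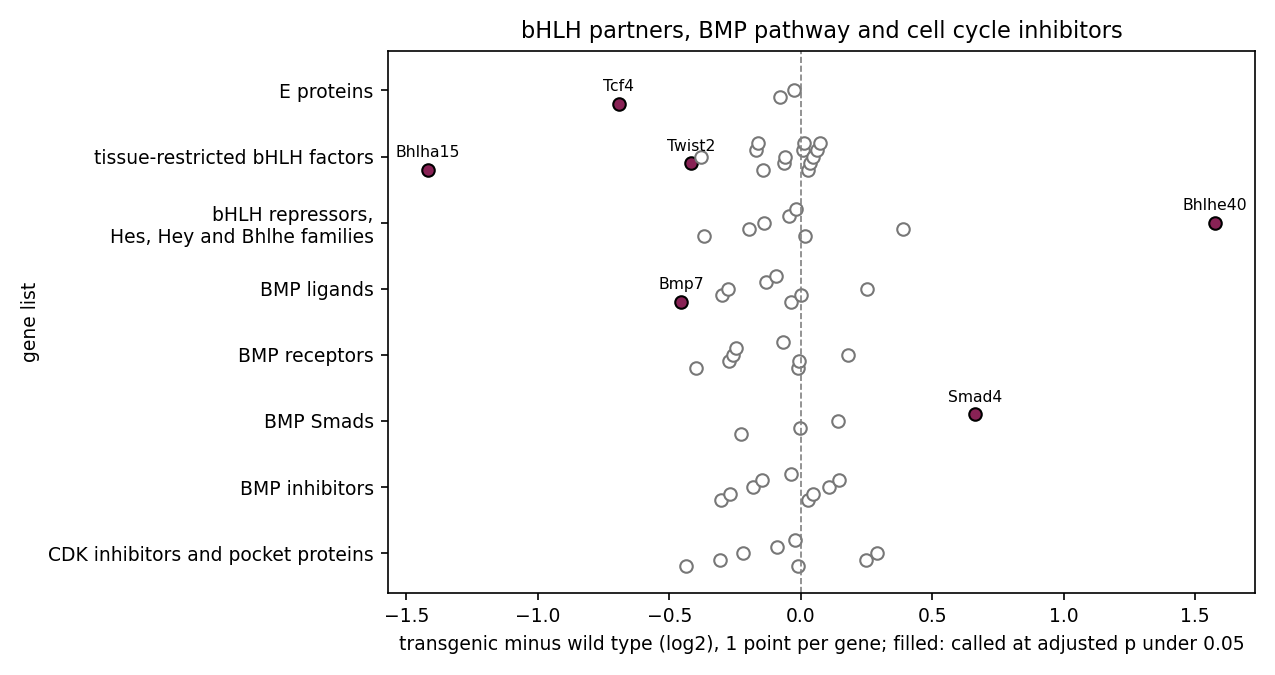
Transgenic minus wild type difference on the log2 scale (horizontal axis) of each of the 63 measured genes in the 8 lists (vertical axis, 1 point per gene), filled and named where the limma adjusted p was under 0.05. Of the 6 named genes, Bhlhe40 and Smad4 lie above 0 and Tcf4, Bhlha15, Twist2 and Bmp7 below.

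BMP signals reach the Id genes through receptors that phosphorylate Smad1, Smad5 and Smad9, which enter the nucleus with Smad4. Among 8 measured BMP ligands 1 fell in limma and 7 were not called, and 6 lay below every array median. Bmp7 went from 7.04 ± 0.13 to 6.59 ± 0.23 (SD, n = 4 each), a fall of 0.46 (limma adjusted p = 0.0438). It missed the threshold under 11 of 17 other settings (limma adjusted p up to 0.258, with the stromal score as a covariate). Among them were wild type arrays 2, 3 and 4 and transgenic arrays 2 and 3 left out in turn (adjusted p up to 0.145). A second Bmp7 probe set fell by 0.76 and its dimmest, at -0.18, was not called.

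Of the 8 measured BMP receptors none was called in limma, and 1, Acvr2a, had an unadjusted p under 0.05. Acvr2a, an activin type II receptor that also binds BMPs, had means of 7.67 ± 0.18 in the wild type and 7.27 ± 0.35 in the transgenic group (SD, n = 4 each; limma adjusted p = 0.189). Without transgenic array 1 it passed, at -0.54 (adjusted p = 0.0415), and its other probe set differed by 0.05. Of the 4 Smads, Smad4 rose, from 9.66 ± 0.13 to 10.33 ± 0.14 (SD, n = 4 each; limma adjusted p = 0.00227), and Smad1, Smad5 and Smad9 were not called. Its wild type arrays read between 9.50 and 9.80 and its transgenic arrays between 10.20 and 10.53. A second Smad4 probe set rose by 1.00, and its dimmest, at 0.51, was not called.

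Smad6 and Smad7, inhibitory Smads that are themselves induced by BMP and TGF-beta, belong to the 9 measured inhibitors, of which none was called in limma and 0 had an unadjusted p under 0.05. Smad6, at -0.30 ± 0.14 (SE), lay below every array median, and it passed without wild type array 1 (-0.42, limma adjusted p = 0.0424). Of 8 CDK inhibitors and pocket proteins, which include growth arrest genes that E proteins activate and the Id2 partner Rb1, none was called in limma and 2 had an unadjusted p under 0.05. The smallest p was that of Rbl2, a relative of Rb1, at -0.44 ± 0.19 (SE; limma adjusted p = 0.202). The other was Rb1, at -0.31 ± 0.14 (SE; limma adjusted p = 0.237), given after its values were seen. With the endothelial score as a covariate Rbl2 passed (-0.54, adjusted p = 0.0411). Cdkn1a, a gene that E proteins can activate, had means of 8.25 in the wild type and 8.23 in the transgenic group, and it was named after its values were seen. Its other probe set had means of 6.60 and 6.85, a difference of 0.26 ± 0.16 (SE), and was not called.

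The genes whose values across the arrays were nearest to those of Id4 were found by the root mean square difference of gene-centred log2 values over the 8 arrays, among 6379 genes above the median on every array. They were Cbs at 0.40, Cldn23 at 0.43, Derl3 at 0.44, Kcnk3 at 0.49 and Mt2 at 0.50. Cbs encodes an enzyme of homocysteine metabolism, Cldn23 a claudin of tight junctions, Derl3 a factor of protein degradation at the endoplasmic reticulum, Kcnk3 a potassium channel and Mt2 a metallothionein. The Cbs probe set is of a kind that can match several transcripts. All 5 had groups that did not overlap, with differences from -2.10 for Derl3 to -1.70 for Kcnk3, and the likeness rests mainly on that difference. Kcnk3 was highest in wild type array 1, at 9.35, as the Id4 probe set 1450928_at was (the other 2 Id4 probe sets were highest in wild type array 2), while Mt2 was not low in wild type array 4, at 11.39.

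**Figure D4:**
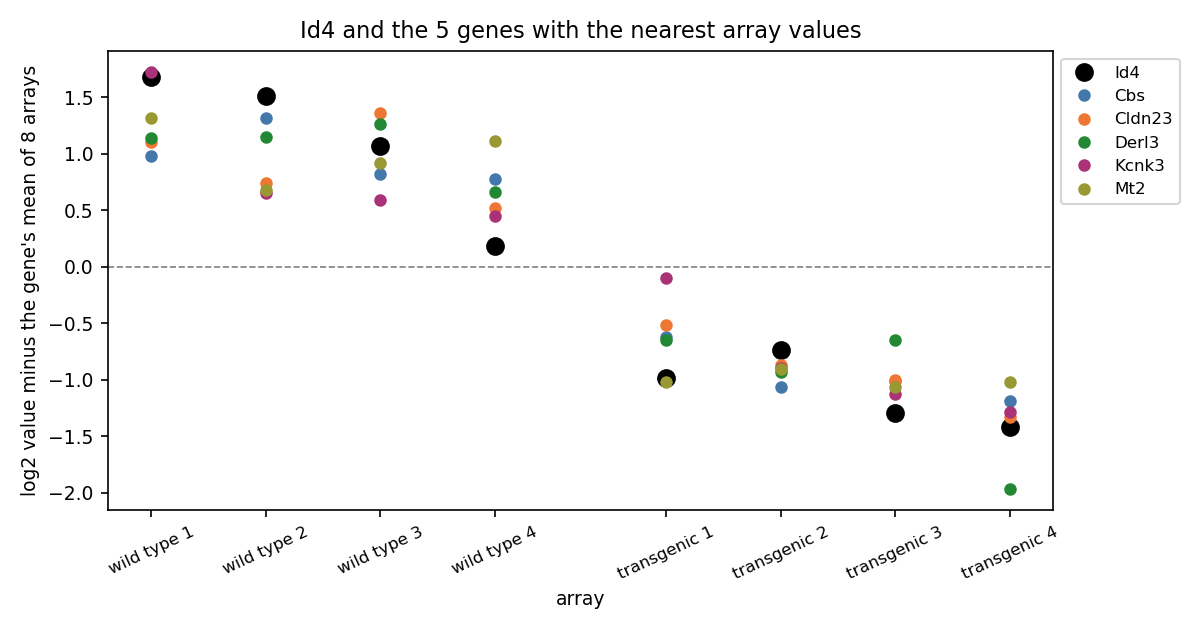
Log2 value minus the gene's mean of 8 arrays (vertical axis) in each array (horizontal axis) for Id4 and the 5 genes nearest to it. All 6 genes lie above 0 in the wild type arrays and below 0 in the transgenic arrays, and in wild type array 4 Id4 is the lowest of the 6.

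The nearest genes of the other members had smaller differences between groups than those of Id4, from -0.47 for Acta2 to 0.25 for Rnf34. Candidates were again genes above the median on every array, while Id1 and Id3 lay mostly or wholly below it. For Id1 the nearest genes were Amotl2 (root mean square difference 0.07), L1cam, Icosl, Gfpt2 and Rbms1. For Id2 they were Ctnna1 (0.07), Rnf34, Junb, Polr2h and Mrpl58. For Id3 they were Srgn (0.13), Tagln, Fn1, Acta2 and Mef2a, of which Tagln and Acta2 are in the smooth muscle list and Fn1 encodes the matrix protein fibronectin. The SD over the 8 arrays was 0.31 for Id1, 0.22 for Id2 and 0.41 for Id3, against 1.28 for Id4.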

How the data were processed

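The deposited values are log2 RMA values made by the authors, as the submitters' processing notes name RMA and give no version of it. RMA subtracts background, equalises array distributions and summarises probes, so a shift common to all transcripts would be removed. The deposited distributions were not identical. Array medians lay between 5.40 and 5.51, and array SDs ran from 1.92 in wild type array 4 to 2.10 in wild type array 1. Total RNA had been purified and biotin-labelled per the labels' protocols. Of 22690 probe sets, 64 controls were left out. Names came from the platform annotation, updated through RefSeq (GRCm38.p6); no probe set was named Pik3cb. Upstream sequences are from RefSeq; 3 of the 4 members were in that table.

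The fit used limma 3.58.1 (lmFit, eBayes) in R 4.3.3 on 22626 probe sets, with Benjamini-Hochberg adjustment, and the fit was tested on simulated data. Scores were compared by exact permutation over 70 assignments (smallest p 0.0286). The members and lists were chosen with earlier results of these data known. Named genes were the members and all E proteins, up to 4 called genes per list by size or else the smallest p, up to 2 called genes per cell type list, of which a part is printed, and the 5 nearest genes per member. Alternatives covered normalization, a filter on dim probe sets, the prior, array weights, a replicate block, marker scores, probe set means and leaving out each array.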

Additional observations from a re-analysis of the deposited data

Results flagged for a closer look

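In 6 of 66 groups of 4 examined, 1 array stood far from the other 3; chance marks about 1 group in 20. Bhlha15 read 9.84 in transgenic array 1, against 9.36 to 9.43 in the others. Twist2 read 5.54 in wild type array 1, against 5.83 to 5.89. Bhlhe40 read 6.33 in wild type array 2, against 5.86 to 5.94. Rbl2 read 6.42 in transgenic array 4, against 6.94 to 6.99. The basal epithelial score was 0.15 in wild type array 1, against 0.28 to 0.30, and the macrophage score was -0.049 in transgenic array 1, against 0.07 to 0.09. No group of the 8 Id probe sets was marked in this way.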

How the results depend on the processing

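The count of called Id probe sets was 3 under every alternative run except the stromal covariate, where it was 2; all were of Id4, whose differences ranged from -2.53 to -0.97, counts that repeat the contrast behind the choice of the family. Called probe sets over the table numbered 2227, against 3587 with array weights, 1012 with the stromal covariate and 1387 to 2525 with 1 array left out (lowest without transgenic array 2). Context genes called ranged from 4 to 8. Cell marker genes called, 16 in all, were 10 with the stromal covariate and 12 to 26 with 1 array left out (highest without wild type array 1). The stromal score difference ran from -0.62 to -0.31 with 1 array left out. Without wild type array 1 its exact permutation p, not adjusted over the 2 scores, was 0.0286, the smallest possible in that comparison. With any other array left out the exact permutation p was 0.0571 or 0.0857. Signs turned, without a call, for Id1 (0.21) and Id3 (0.12) with the stromal covariate, for Id2 1453596_at (-0.096 to 0.0040 with 1 array left out) and for Tcf3 (0.011 quantile, 0.018 cyclic loess, 0.016 stromal, -0.076 to 0.017 with 1 array left out). The cause was not tested. Same-numbered arrays of the groups share only a number, with deviations correlated from -0.31 to 0.33; with a replicate block 1797 probe sets were called, the 3 of Id4 among them, and Bmp7 missed the threshold (adjusted p = 0.0535). Signals near background limit Id1, Id3 and Id2 1453596_at.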
